A study of Mus musculus with 9 samples.

Results

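The annexins measured here were Anxa1, Anxa2, Anxa3, Anxa4, Anxa5, Anxa6, Anxa7 and Anxa11, 8 genes taken by matching the accession of every probe to the gene. They were read by 10 of the 41174 distinct probes on the array, with 2 probes each for Anxa2 and Anxa4 and 1 probe for each of the others. All 10 probes were among the 36585 that passed the filter on dim probes, and each was well above background on all 9 arrays. These genes were singled out with the results of all 3 comparisons below already known, so their levels, changes and calls are given as a description and no p-value is attached to any of them.

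FDCPmix, the cells used throughout, are a mouse multipotent hematopoietic line that self-renews in IL-3. Cells received the Lentilox 3.7 lentiviral vector, which carries GFP, as the empty vector (EV), with an shRNA against Gata2 (Gata2 KD) or with an shRNA against Pu.1 (Pu.1 KD), so that the controls carry the same vector without a hairpin. Viable GFP-positive cells were sorted after 5 days, and total RNA (150 ng) was read on single-color Agilent whole mouse genome arrays, 3 for each group. Nothing in the labels ties the 3 samples of a group to separate cultures, and p-values below measure only the spread between these samples. Gata2 and Pu.1 encode transcription factors of hematopoietic stem and progenitor cells, and the comparisons ask which genes depend on each.

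Annexins are cytosolic proteins that bind acidic phospholipids when calcium rises, each through a conserved core of repeats, while the N-terminal part differs between members and binds partners such as S100 proteins. They take part in exocytosis, endosome traffic, membrane repair and the control of inflammation. In blood cells they are best known from myeloid cells, where Anxa1 and Anxa3 are abundant in neutrophils. Secreted ANXA1 acts on formyl peptide receptors, and ANXA5 is used to stain phosphatidylserine on dying cells.

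Levels are log2 processed signal relative to the 75th percentile of the array, set to 0. They compare a probe between arrays and do not rank one gene against another. A change is a difference of group means on that log2 scale with its standard error (SE), and a probe was called when its adjusted p over all tested probes, from limma with Benjamini-Hochberg adjustment, was under 0.05. The 75th percentile of the processed intensity lay between 438.7 and 587.4 across arrays, 80.4% to 89.6% of spots were well above background, and the array of EV replicate 3 stood somewhat apart (mean correlation with the other arrays, across probes, 0.960, against 0.971 or more for each of the rest). Each of the 3 slides held 1 array of each group, so every change could also be read within a slide.

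The targeted genes followed the labels. Gata2 fell from a mean level of 4.80 in EV to 3.19 in Gata2 KD, a change of -1.61 (SE 0.23, limma adjusted p = 0.00414), and its second probe changed by -1.80. Spi1, the gene of PU.1, fell from -1.86 in EV to -3.59 in Pu.1 KD, a change of -1.73 (SE 0.16, limma adjusted p = 0.00178). In Gata2 KD, Spi1 rose by 1.39 (SE 0.16, limma adjusted p = 0.0012).

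Anxa3 differed most between the groups. Against EV it was 5.90-fold higher in Gata2 KD and 5.36-fold lower in Pu.1 KD. Anxa1, Anxa2 and Anxa6 were each between 1.86-fold and 1.90-fold higher in Gata2 KD than in EV. Anxa5, Anxa7 and Anxa11 had group means within 0.24 of each other in every comparison.

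**Figure D1:**
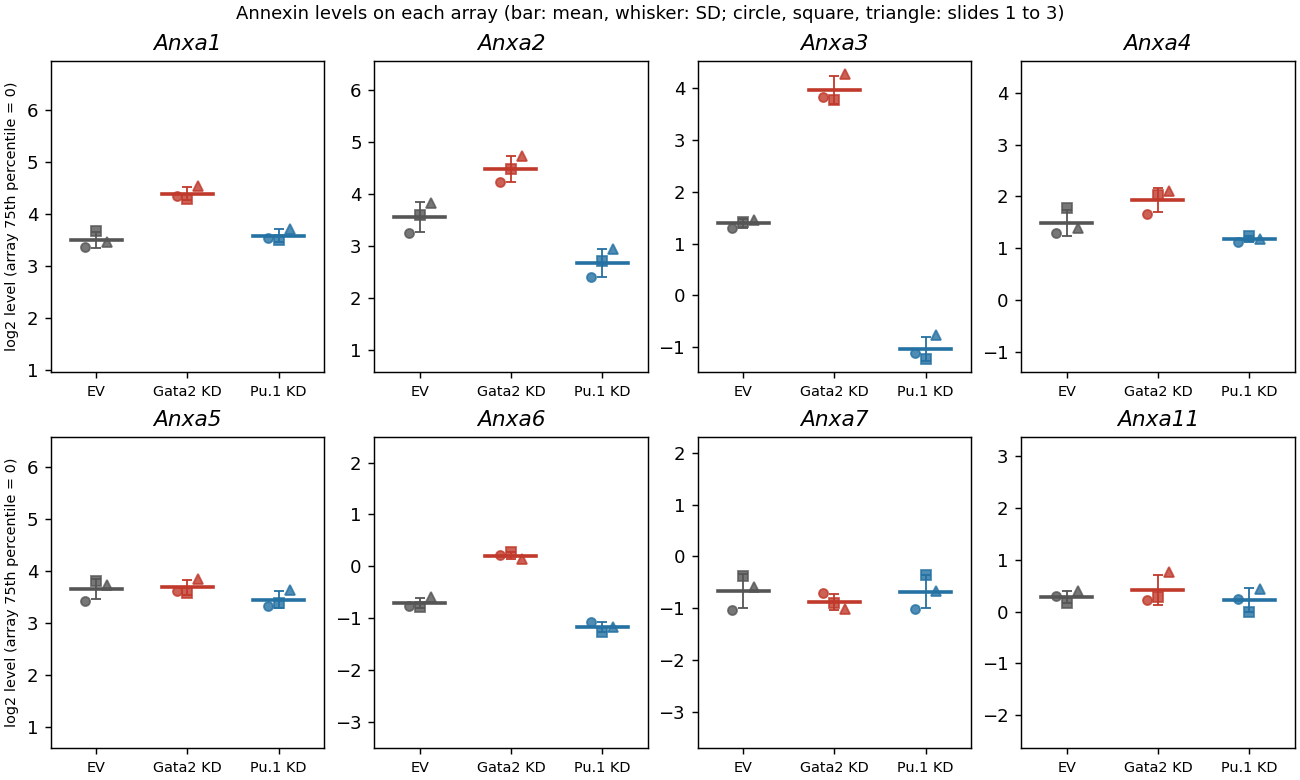
Level of each annexin on each of the 9 arrays, 1 panel a gene, with the group on the horizontal axis and the log2 level (75th percentile of the array at 0) on the vertical axis. Bars are group means, whiskers the SD of 3 arrays, and marker shapes the 3 slides. Panels have the same span but different origins. Anxa3 falls into 3 separate levels, while the groups of Anxa5, Anxa7 and Anxa11 overlap.

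Anxa3 encodes a short annexin found in neutrophil granule membranes. Its level was 1.29, 1.46 and 1.42 on the EV arrays (mean 1.39 ± 0.09, SD, n = 3). It was 4.26, 3.76 and 3.83 on the Gata2 KD arrays (mean 3.95 ± 0.27) and -1.22, -0.76 and -1.11 on the Pu.1 KD arrays (mean -1.03 ± 0.24). No group overlapped another, and the order was Gata2 KD, EV, Pu.1 KD. The change was 2.56 (SE 0.19) in Gata2 KD and -2.42 (SE 0.19) in Pu.1 KD. Within slides the first lay between 2.35 and 2.80 and the second between -2.64 and -2.23. Among 36585 tested probes the Anxa3 probe held rank 193 from the top in Gata2 KD against EV and rank 30 from the bottom in Pu.1 KD against EV. Set directly against Pu.1 KD, Gata2 KD was higher by 4.98 (SE 0.19), which is 31.6-fold, with values between 4.94 and 5.02 on the 3 slides. All 3 calls of Anxa3 held under each of the 21 alternatives tried.

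Anxa6 and Anxa2 had the same order of group means, with smaller changes. Anxa6, a large annexin with a repeated core that is linked to endosomes and cholesterol, read -0.76, -0.60 and -0.78 in EV. It read 0.13, 0.27 and 0.21 in Gata2 KD and -1.27, -1.18 and -1.08 in Pu.1 KD. The 3 groups did not overlap. The rise in Gata2 KD was 0.92 (SE 0.13), or 1.89-fold, and was called under all 21 alternatives. The difference in Pu.1 KD was -0.46 (SE 0.13, 95% confidence interval -0.75 to -0.18), which was not called, although it had the same sign on all 3 slides (-0.58 to -0.32). Gata2 KD was higher than Pu.1 KD by 1.38 (SE 0.13), or 2.60-fold.

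Anxa2 binds the plasma membrane in a complex with S100A10 and promotes plasmin generation at the cell surface. Its brighter probe read 3.25, 3.83 and 3.60 in EV, 4.73, 4.49 and 4.24 in Gata2 KD and 2.71, 2.94 and 2.40 in Pu.1 KD. The groups did not overlap, but slide 1 gave the lowest of the 3 values in each of them. The mean of the 3 deviations from the group means was -0.28 on slide 1, 0.02 on slide 2 and 0.26 on slide 3. The change in Gata2 KD was 0.93 (SE 0.22), or 1.90-fold, and within slides 0.89 to 1.00. This call was close to the threshold and was lost under 13 of 21 alternatives, including when any 1 of the 9 arrays was left out (changes of 0.77 to 1.07). With the slide as a block it was kept, and its SE was 0.09. In Pu.1 KD the difference was -0.88 (SE 0.22, within slides -0.90 to -0.85), which was not called, but was with the slide as a block and under 4 more alternatives. Gata2 KD and Pu.1 KD differed by 1.81 (SE 0.22), or 3.50-fold, and that call held throughout the alternatives.

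The second Anxa2 probe gave the same picture. It read 2.21, 2.79 and 2.36 in EV, 3.55, 3.79 and 3.33 in Gata2 KD and 1.80, 1.91 and 1.30 in Pu.1 KD. It was 2.15-fold higher in Gata2 KD than in EV (called), differed by -0.78 (SE 0.23, not called) in Pu.1 KD, and by 1.89 between the knockdowns (called). Both probes read the same RNA samples and are not replicates of each other.

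Anxa1, the glucocorticoid-induced annexin that limits neutrophil recruitment, differed from these in Pu.1 KD. It read 3.37, 3.46 and 3.68 in EV, 4.54, 4.30 and 4.34 in Gata2 KD and 3.50, 3.72 and 3.54 in Pu.1 KD. The Gata2 KD arrays lay above all others, and those of EV and Pu.1 KD overlapped. The rise in Gata2 KD was 0.89 (SE 0.14), or 1.86-fold, with 0.62 to 1.08 on the slides. The call was lost with the replicate number as a block and with scaling to the median. In Pu.1 KD the difference was 0.08, with a 95% confidence interval of -0.25 to 0.42. Gata2 KD was higher than Pu.1 KD by 0.81 (SE 0.14, within slides 0.80 to 0.82).

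Anxa4, known from secretory vesicles and epithelia, was called in the direct comparison of the knockdowns and not against EV. Its brighter probe read 1.30, 1.40 and 1.78 in EV, 2.10, 2.03 and 1.66 in Gata2 KD and 1.23, 1.17 and 1.12 in Pu.1 KD. Gata2 KD overlapped EV, and the Pu.1 KD arrays lay just below the lowest EV array. The differences from EV were 0.44 (95% confidence interval 0.03 to 0.85) in Gata2 KD and -0.32 in Pu.1 KD. Gata2 KD was higher than Pu.1 KD by 0.76 (SE 0.18), or 1.69-fold, with 0.55 to 0.93 on the slides. This call was kept under 14 of 21 alternatives. Leaving out any Pu.1 KD array, or Gata2 KD replicate 1 or 2, ended it, with changes between 0.68 and 0.90 over all arrays left out in turn. The second probe read -0.96, -0.52 and -0.46 in EV, -0.15, -0.34 and -0.38 in Gata2 KD and -1.08, -0.94 and -1.27 in Pu.1 KD, and it too was called between the knockdowns (0.81) and not against EV (0.36 and -0.45).

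Anxa5, Anxa7 and Anxa11 were not called in any comparison. Anxa5 read 3.43, 3.73 and 3.80 in EV, 3.85, 3.58 and 3.61 in Gata2 KD and 3.38, 3.63 and 3.33 in Pu.1 KD. Its differences from EV were 0.03 (95% confidence interval -0.34 to 0.40) in Gata2 KD and -0.21 (-0.57 to 0.16) in Pu.1 KD. The 3 groups overlapped.

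Anxa7, or synexin, was first known for joining secretory granules. It read -1.02, -0.59 and -0.38 in EV, -1.02, -0.90 and -0.70 in Gata2 KD and -0.36, -0.67 and -1.01 in Pu.1 KD. Its differences from EV were -0.21 (-0.73 to 0.30) and -0.01 (-0.53 to 0.50). Anxa11, a partner of S100A6 and ALG-2 with a long N-terminal part, read 0.30, 0.39 and 0.16 in EV, 0.76, 0.28 and 0.22 in Gata2 KD and -0.01, 0.44 and 0.23 in Pu.1 KD. Its differences from EV were 0.14 (-0.30 to 0.57) and -0.06 (-0.50 to 0.38). For both genes the range within each group was larger than any difference between group means.

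**Figure D2:**
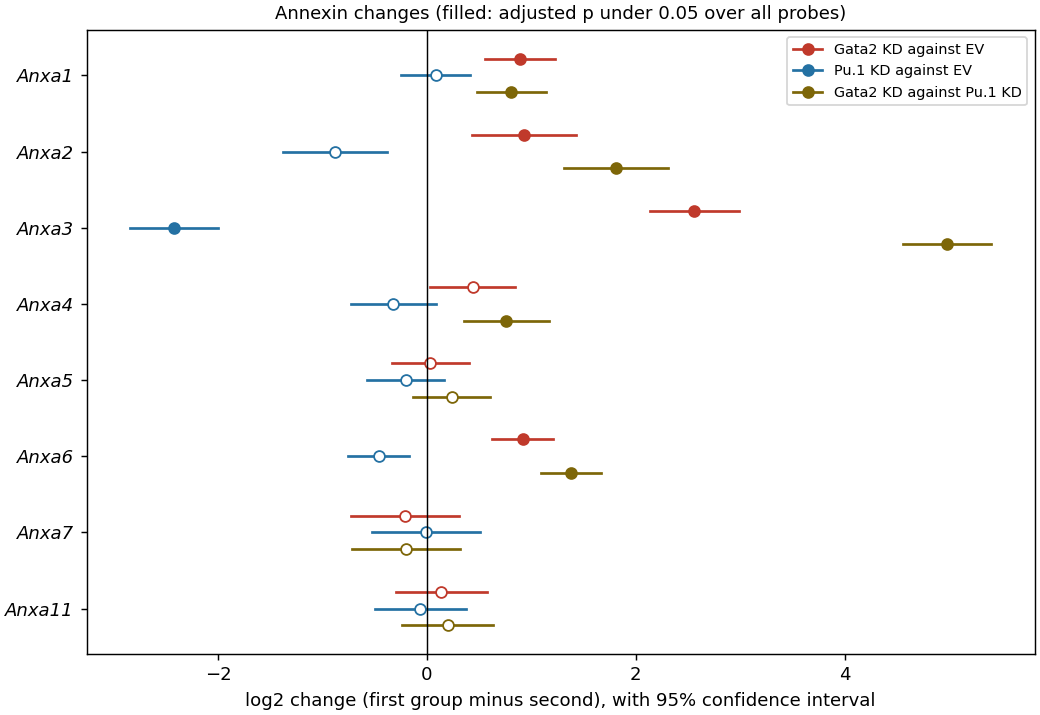
Change of each annexin in the 3 comparisons, on the log2 scale, with 95% confidence intervals from the limma fit and the brighter probe of Anxa2 and Anxa4. Filled points were called over all probes. Anxa3 lies at 2.56, -2.42 and 4.98, and the intervals of Anxa5, Anxa7 and Anxa11 include 0 in each comparison.

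Counted over the 8 genes, 4 rose and none fell in Gata2 KD against EV, where 2.96% of all tested probes were called higher and 2.24% lower. In Pu.1 KD against EV, 1 gene fell and none rose, where 1.42% of tested probes were called lower and 1.27% higher. In Gata2 KD against Pu.1 KD, 5 were higher and none lower, where 4.86% of tested probes were called higher and 4.77% lower. Groups did not overlap for 4 genes in the first comparison, all higher (7.65% of tested probes were of that kind). In the second they did not overlap for 4 genes, all lower (9.32%), and in the third for 5 genes, all higher (11.8%). The median change was 0.67, -0.26 and 0.78 in the 3 comparisons, against -0.09, -0.04 and -0.04 over all tested probes. Here and in the lists below, genes are counted by their brightest probe, while the shares are over all tested probes, named or not. A share over genes may differ. Because the genes were picked with these comparisons known, nothing is read from the shares, and the 2 comparisons against EV share their control arrays.

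The promoters of 3 of the members called between the knockdowns are shown to let the annotated start regions be read beside these values. They are from RefSeq (GRCm38.p6), from 250 bases before to 50 after an annotated start site, on the strand of the gene. The tables held 8 such windows for 6 of the 8 members and none for Anxa3 or Anxa6. Capitals mark matches, on either strand, to AGATAAG (bound by GATA factors), GGAAGTG (bound by PU.1 and other ETS factors), GAGGAA (an ETS motif of the PU.1 kind) or TGTGGT (bound by RUNX factors).

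Anxa1, chr19:20390622-20390921, minus strand: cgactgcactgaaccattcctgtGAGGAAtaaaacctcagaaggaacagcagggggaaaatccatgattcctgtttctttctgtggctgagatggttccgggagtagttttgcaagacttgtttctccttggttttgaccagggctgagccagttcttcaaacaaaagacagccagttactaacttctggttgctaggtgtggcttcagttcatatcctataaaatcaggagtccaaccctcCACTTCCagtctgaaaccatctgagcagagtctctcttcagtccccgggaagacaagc

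Anxa2, chr9:69453433-69453732, plus strand: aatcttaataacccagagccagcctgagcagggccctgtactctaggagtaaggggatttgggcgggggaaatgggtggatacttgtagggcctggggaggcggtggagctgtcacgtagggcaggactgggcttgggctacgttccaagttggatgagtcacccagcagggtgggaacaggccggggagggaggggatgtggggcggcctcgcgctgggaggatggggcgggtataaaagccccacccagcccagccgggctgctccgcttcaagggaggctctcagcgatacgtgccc

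Anxa4, chr6:86775065-86775364, minus strand: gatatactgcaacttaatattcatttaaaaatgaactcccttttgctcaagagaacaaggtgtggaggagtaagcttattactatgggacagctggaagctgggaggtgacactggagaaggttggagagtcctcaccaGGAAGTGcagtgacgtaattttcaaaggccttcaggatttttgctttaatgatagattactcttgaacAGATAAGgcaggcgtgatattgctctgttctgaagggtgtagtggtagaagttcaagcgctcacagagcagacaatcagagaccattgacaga

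The Anxa1 window held GAGGAA starting at -227 and, on the opposite strand, GGAAGTG at -8. The Anxa4 window shown held GGAAGTG at -111 and AGATAAG at -43. The window of the other annotated Anxa4 start, which lies upstream (chr6:86793535-86793834, minus strand) and is not shown, had no match. A match was found in 3 of the 8 windows, the third being GAGGAA in that of Anxa11. Over 32851 promoters of the same length, AGATAAG was present in 1000 (3.04%), GGAAGTG in 3615, GAGGAA in 9289 (28.3%) and TGTGGT in 5506 (16.8%). Such a match is a description of letters, and binding was not measured here.

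The partner and marker lists below were also chosen with earlier results of these data known. Their adjusted p-values and calls are given as a description and are not independent support. Proteins known to bind annexins were followed next, as 7 genes. In Gata2 KD against EV, 4 rose and none fell (5.2% of all tested probes were called in either direction). The median change was 0.70, against -0.09 over all tested probes. S100a4, whose protein binds ANXA2, read 5.66, 5.59 and 5.79 in EV, 7.85, 7.79 and 7.51 in Gata2 KD and 4.67, 4.75 and 4.74 in Pu.1 KD, with no overlap between groups. Its rise in Gata2 KD was 2.04 (SE 0.14, limma adjusted p = 8.43e-05). The other 3 were Ahnak, a giant scaffold of the ANXA2 complex, at 1.99 (SE 0.24, limma adjusted p = 0.00192), S100a11, a partner of ANXA1, at 0.99 (SE 0.15, limma adjusted p = 0.00681), and S100a6, a partner of ANXA11, at 0.70 (SE 0.15, limma adjusted p = 0.03). The S100a6 call was kept under 11 of 21 alternatives. It was lost without any 1 array except Gata2 KD replicate 3 or Pu.1 KD replicate 2 (changes of 0.61 to 0.82). The 6 Ahnak probes changed by 0.80 to 4.99, with 1 of them not called.

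S100a10, which codes for the main partner of ANXA2, was not called in any comparison. Its level was 4.10, 4.33 and 4.23 in EV, 4.56, 4.48 and 4.19 in Gata2 KD and 4.13, 4.44 and 4.36 in Pu.1 KD, and the 3 groups overlapped. Its differences from EV were 0.19 (SE 0.16, 95% confidence interval -0.17 to 0.54) and 0.09 (SE 0.16, -0.27 to 0.45).

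In Pu.1 KD against EV, 2 of the 7 fell and none rose (2.7% of all tested probes were called). S100a4 changed by -0.97 (SE 0.14, limma adjusted p = 0.0112) and S100a6 by -0.72 (SE 0.15, limma adjusted p = 0.0429). The S100a4 call was kept under 15 of 21 alternatives. It was lost without any 1 of the Pu.1 KD arrays, with changes of -1.01 to -0.91 over all arrays left out. The S100a6 call was kept under 9 of 21 alternatives. It was lost without any 1 array except Gata2 KD replicate 1, with changes of -0.78 to -0.67. Between the knockdowns 4 were higher in Gata2 KD and 1, Sri, was lower (9.63% of all tested probes were called), with S100a4 8.01-fold higher (limma adjusted p = 5.53e-06) and Sri changed by -0.55 (SE 0.14, limma adjusted p = 0.0467). Sri, or sorcin, which binds ANXA7, kept that call under 9 of 21 alternatives and lost it without any 1 array except Gata2 KD replicate 1 (changes of -0.64 to -0.49).

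Formyl peptide receptors, on which secreted ANXA1 acts, were higher in Gata2 KD than in EV. Fpr2 read -3.12, -3.28 and -3.27 in EV, 1.08, 0.74 and 0.71 in Gata2 KD and -3.90, -3.99 and -4.28 in Pu.1 KD. No group overlapped another. It rose by 4.07 (SE 0.16, limma adjusted p = 7.49e-06) in Gata2 KD and changed by -0.84 (SE 0.16, limma adjusted p = 0.0353) in Pu.1 KD, a call kept under 6 of 21 alternatives. It was lost without any 1 array except Gata2 KD replicate 1 (changes of -0.91 to -0.72). A second, dimmer Fpr2 probe differed by 1.36 in Gata2 KD and by 0.14 in Pu.1 KD, neither of them called, so the probes disagree in sign in Pu.1 KD. Fpr1 rose by 3.10 (SE 0.22, limma adjusted p = 0.000114) in Gata2 KD, while its difference in Pu.1 KD was -0.13 (SE 0.22). Its mean level was -2.80 in EV, 0.30 in Gata2 KD and -2.93 in Pu.1 KD. Both receptors were dim in EV and Pu.1 KD, though well above background on each array. The size of their changes may thus depend on the background correction. No probe was matched to Fpr3.

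Scramblases and flippases move phosphatidylserine, a lipid that annexins bind, across the membrane, and receptors and bridging proteins recognise it once it is exposed. Of 6 exposure genes, Plscr1 alone was called in either comparison with EV. Over all tested probes, 5.2% were called in Gata2 KD and 2.7% in Pu.1 KD. Plscr1, a phospholipid scramblase, lay between 4.89 and 5.19 in EV, 4.11 and 4.31 in Gata2 KD and 5.61 and 5.75 in Pu.1 KD. It changed by -0.79 (SE 0.14, limma adjusted p = 0.0136) and 0.67 (SE 0.14, limma adjusted p = 0.0484), with the same signs on all 3 of its probes, of which the other 2 were not called in Pu.1 KD. The first call was kept under 16 and the second under 9 of 21 alternatives. The first was lost without Gata2 KD replicate 2 or 3 (changes of -0.84 to -0.69). The second was lost without any 1 array except EV replicate 3 (0.62 to 0.77). The scramblases Xkr8 and Ano6 were not called, with changes of 0.06 and 0.01 in Gata2 KD, and neither were Plscr3, the flippase Atp11a and the flippase subunit Tmem30a. The median change over the 6 was -0.07 in Gata2 KD and -0.03 in Pu.1 KD.

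Among 6 receptors and bridging proteins for phosphatidylserine, 1 rose in Gata2 KD, and 1 rose and 1 fell in Pu.1 KD. Over all tested probes, 2.96% were called higher and 2.24% lower in Gata2 KD, and 1.27% higher and 1.42% lower in Pu.1 KD. Stab1, a scavenger receptor of macrophages, changed by 1.01 (SE 0.15, limma adjusted p = 0.00557) in Gata2 KD, a call kept under 20 of 21 alternatives. In Pu.1 KD it changed by -1.79 (SE 0.15, limma adjusted p = 0.00138). Its second, dimmer probe changed by 0.07 in each, not called, so the probes disagree in sign in Pu.1 KD. Axl, a receptor kinase that takes Gas6 as ligand, rose by 1.01 (SE 0.20, limma adjusted p = 0.039) in Pu.1 KD, a call kept under 8 of 21 alternatives. It was lost without any 1 array except Gata2 KD replicate 1 (changes of 0.88 to 1.15). Between the knockdowns Axl was lower in Gata2 KD by -1.58 (SE 0.20, limma adjusted p = 0.0014) and the bridge Mfge8 was 2.01-fold lower (limma adjusted p = 0.00383). In Gata2 KD against EV, Axl and Mfge8 were not called, with changes of -0.57 and -0.64. Both were called lower with the slide as a block (limma adjusted p = 0.0307 and 0.0422), Axl in 1 and Mfge8 in 7 of the 21 alternatives. Mertk, Gas6 and Timd4 were not called in any comparison. The Mertk probe was well above background on 1 of 3 EV arrays, all 3 Gata2 KD arrays and 1 of 3 Pu.1 KD arrays. Its change in Gata2 KD against EV was 1.26 (SE 0.79), and 2.28 without EV replicate 3, when it was called (limma adjusted p = 0.0227). The EV arrays that remained then read -6.25 and -7.23 and were not well above background, so the size of that change is uncertain.

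No gene was called in limma among 4 of membrane repair (Dysf, Capn1, Capn2 and Capns1), with 0 at an unadjusted p under 0.05 in either comparison against EV and 1 between the knockdowns. That gene was Capn2, a calpain subunit, which was higher in Gata2 KD by 0.62 (SE 0.17), the groups not overlapping, and was called under 5 of 21 alternatives, among them the slide as a block (limma adjusted p = 0.0311). No probe was matched to Myof or Trim72. None was called among 4 of the phospholipase and glucocorticoid response (Pla2g4a, Nr3c1, Tsc22d3 and Fkbp5), with 1 at an unadjusted p under 0.05 in each comparison against EV and 2 between the knockdowns. Nr3c1 encodes the glucocorticoid receptor, and Tsc22d3 and Fkbp5 are common targets of it. The changes of these 4 in Gata2 KD lay between -0.51 and 0.26. Over all tested probes, 5.2% were called in Gata2 KD, 2.7% in Pu.1 KD and 9.63% between the knockdowns. With 4 genes a list, none called is near these shares. The unadjusted counts are given without such a share, and nothing is read from them.

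**Figure D3:**
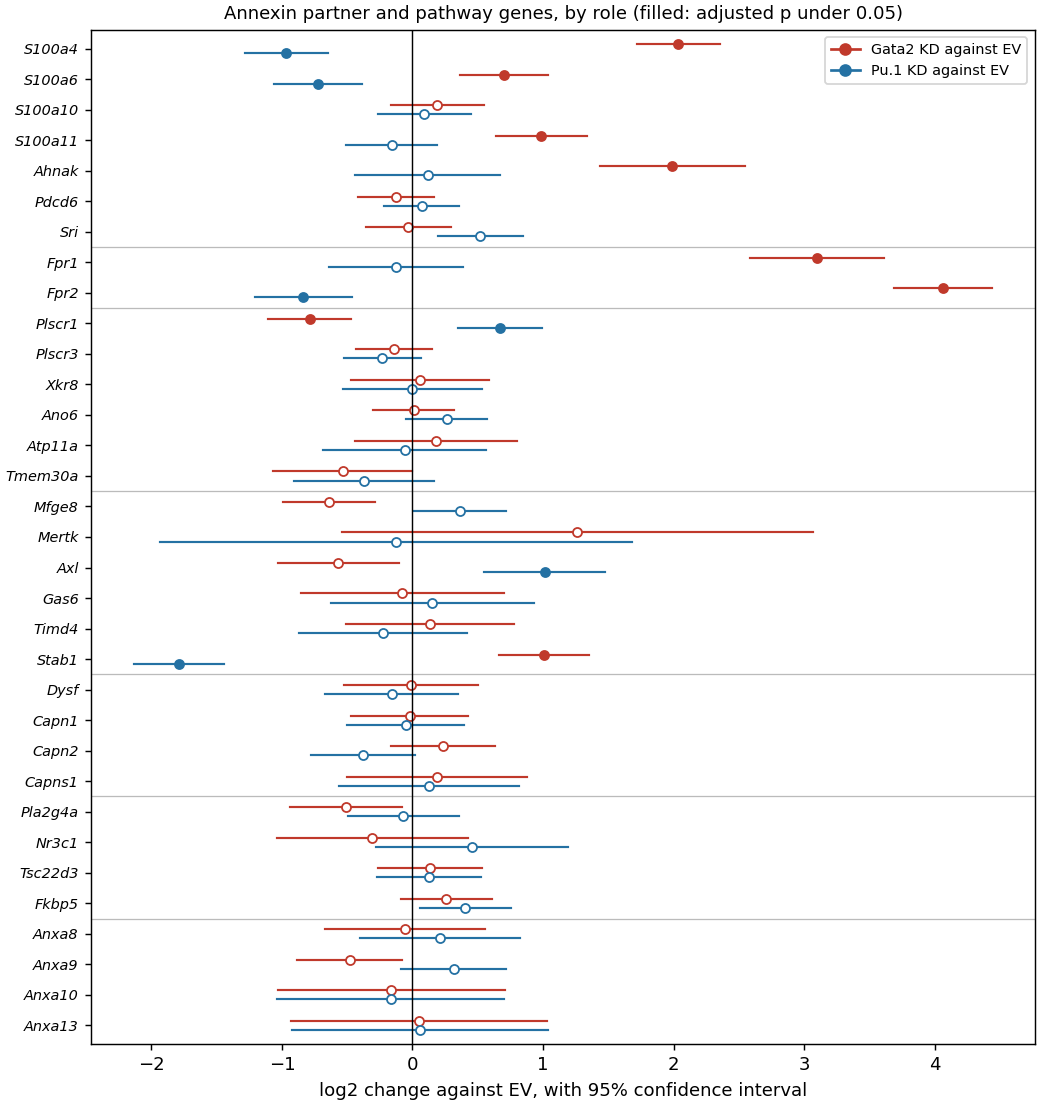
Change against EV on the log2 scale, with 95% confidence intervals, for the 33 partner and pathway genes tested, grouped by role in the order of the text, and last the 4 annexins outside the set described. Filled points were called. Fpr1 and Fpr2 lie at 3.10 and 4.07 in Gata2 KD, and the membrane repair and glucocorticoid genes have open points throughout.

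Over all partner lists, 7 genes rose and 1 fell of 33 tested in Gata2 KD against EV, 2 rose and 4 fell in Pu.1 KD against EV, and 7 were higher and 5 lower in Gata2 KD against Pu.1 KD. Over all tested probes the called shares, higher and lower, were 2.96% and 2.24%, 1.27% and 1.42%, and 4.86% and 4.77%. The median change over the 33 was 0.05, -0.00094 and 0.03, and over all tested probes -0.09, -0.04 and -0.04.

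The genes with profiles most like that of Anxa3 were sought over the 9 arrays, each gene centred on its own mean, by the root-mean-square difference on the log2 scale among 14464 other genes. The nearest was S100a9, a neutrophil calcium-binding protein, at 0.16, followed by Ifi202b, an interferon-inducible gene, at 0.28. Csta1, Cstdc6 and Stfa2l1, cysteine protease inhibitors of the stefin family, stood at 0.28, 0.32 and 0.33. Stefin genes have near-identical copies, so their probes may read more than 1 of them. S100a9 changed by 2.75 in Gata2 KD and -2.29 in Pu.1 KD. Among the annexins the nearest was Anxa2, at rank 250 (1.31), then Anxa6 at rank 379 (1.49) and Anxa1 at rank 770 (1.72), and the last was Anxa7 at rank 9847 (2.14). The measure weighs the size of a change as well as its order, and says nothing of shared control.

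**Figure D4:**
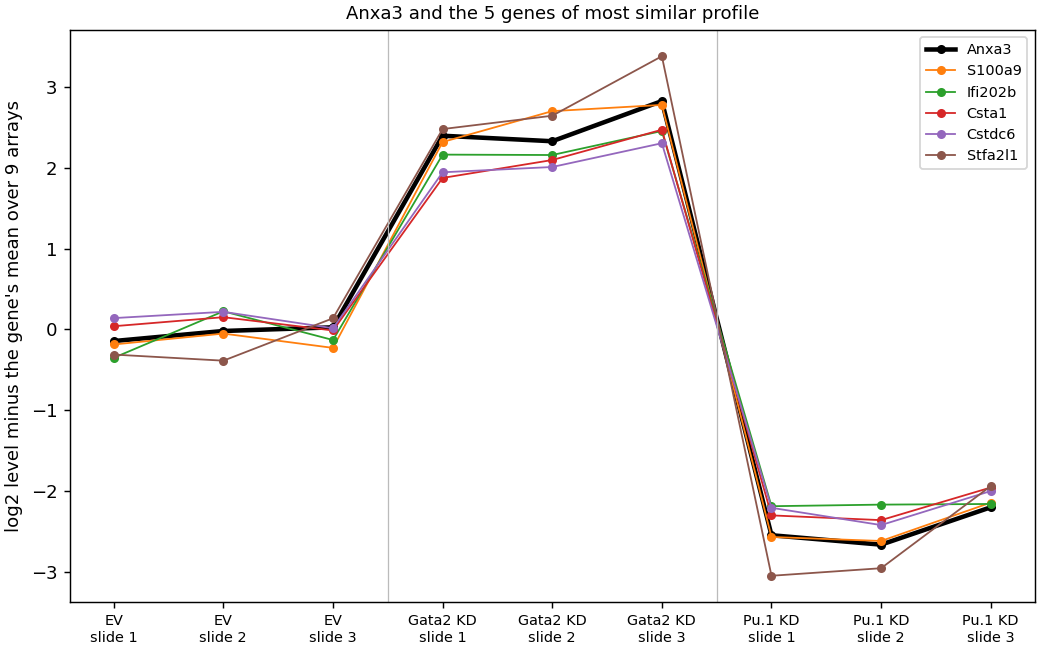
Profile of Anxa3 and of the 5 genes nearest to it over the 9 arrays, ordered by group and slide. The vertical axis is the log2 level minus the mean of the gene over the 9 arrays. All 6 lines are near 0 in EV, high in Gata2 KD and low in Pu.1 KD, and Stfa2l1 has the widest span.

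Marker lists of blood lineages, none of which defines FDCPmix itself, differed between the groups as well. The mean log2 level over the 13 neutrophil markers tested, of 15 listed, was 0.48 to 0.69 on the EV arrays, 3.37 to 3.60 in Gata2 KD and -0.81 to -0.69 in Pu.1 KD. Of these 13, 12 rose in Gata2 KD against EV, where 2.96% of all probes were called higher, and 9 fell in Pu.1 KD, where 1.42% were called lower. For the lists that follow, the shares over all tested probes in the other directions were 2.24% lower in Gata2 KD and 1.27% higher in Pu.1 KD. Over 8 of 10 monocyte and macrophage markers it was -1.32 to -1.10, 1.79 to 1.88 and -1.75 to -1.50, with 6 called higher in Gata2 KD and 2 lower in Pu.1 KD. Over 8 of 9 mast cell and basophil markers it was 2.23 to 2.31, 0.79 to 0.87 and 2.04 to 2.11, with 1 called higher and 5 lower in Gata2 KD, and 1 higher and 2 lower in Pu.1 KD. Erythroid markers (9 of 10) gave -0.93 to -0.11, -1.01 to -0.85 and -0.41 to -0.16, with 2 called lower in Gata2 KD and 2 higher in Pu.1 KD. Megakaryocyte markers (8 of 9) gave 1.81 to 1.87, 1.85 to 2.10 and 2.34 to 2.43, with 2 called higher and 1 lower in Gata2 KD, and 3 higher and 1 lower in Pu.1 KD. No probe was matched to Ly6g, Cebpe, Cd68, Ly6c2, Tpsab1, Ahsp or Gp6. In sorted cells measured in bulk, a change in the share of a cell type and a change in RNA per cell cannot be told apart, and the part of cell type in the annexin changes was not tested.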

How the data were processed

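Gene expression was measured in 9 samples of sorted FDCPmix cells, 1 single-color (Cy3) Agilent 4x44K array each, whose design is annotated to mm8. Groups and replicate numbers came from the sample titles. The authors deposited the scanner output of Feature Extraction 10.1.1.1, whose intensity values (processed signal) are background-subtracted and not normalized between arrays. They also deposited 1 table of log2 values, which correlated with the log2 median signal at 0.997 or more and with the processed signal at 0.980 or less. It is thus closer to the signal before background subtraction. Its array medians lay between 7.00 and 7.05. How it was processed is not stated in the sources used here, and it was an alternative only.

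Here, control spots were left out, 47 to 96 outlier-flagged spots per array were set missing, spots of a probe were averaged as log2 and the 75th percentile of the array was subtracted. A probe was tested when well above background on at least 3 of 9 arrays with 2 or more values in each group. Dim probes depend most on the background correction, and the number of arrays limits the precision. A RefSeq table (GRCm38.p6, names only) named 23374 of 41174 probes. The brightest probe stood for a gene with several. Probes were tested with limma 3.58.1 in R 4.3.3 (group means over all 9 arrays, eBayes, two-sided, Benjamini-Hochberg adjustment over 36585 probes, threshold 0.05). The code was tested on simulated data.

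The members, the partner and marker lists and the motifs were chosen with earlier results of these data known. Named genes were the 8 members, called partner genes (up to 4 a list), Gata2, Spi1 and the 5 genes nearest to Anxa3. Partner genes that were not called, the 4 further annexins and the unmatched markers were named to complete the lists. Some listed genes are not reported here and were left out of the lists. Normexp was run on the median signal, since the mean signal is not among the columns used here. Alternatives were the replicate number or the slide as a block, normexp, quantile normalization, scaling to the median, no or a stricter filter on dim probes, outlier spots retained, limma's trend and robust options, a mean over the probes of a gene, a fit on only the groups compared, the authors' log2 table, and each array left out. Deviations of arrays on 1 slide correlated at -0.04 to 0.72, with 8 of 9 pairs over 0.1. Deviations of same-numbered arrays correlated at -0.55 to 0.65, with 4 of 9 pairs over 0.1. Most same-numbered arrays lay on different slides and the slide was not removed first. These correlations therefore cannot tell whether the numbers pair the samples. The main model has no slide term.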

Additional observations from a re-analysis of the deposited data

How the results depend on the processing

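Each result was recomputed under 21 alternatives. Of the values for single annexins, 466 kept direction and side of the threshold, 23 lost and 6 gained the call, and 9 changed sign, all of them uncalled. The signs that turned were those of Anxa7 in Pu.1 KD (0.027 with scaling to the median, -0.19 to 0.15 with arrays left out), Anxa11 in Pu.1 KD (0.0037 with the deposited log2 values, -0.17 to 0.055 with arrays left out), Anxa11 in Gata2 KD (-0.031 to 0.24) and Anxa5 in Gata2 KD (-0.082 to 0.10). Annexins called in Gata2 KD against EV numbered 4, and 2 with the replicate block or with scaling to the median (3 with any 1 array left out). In Pu.1 KD against EV they numbered 1, and 2 with the slide as a block, normexp, quantile normalization or the trend and robust settings, and 3 with the deposited log2 values (1 with any 1 array left out). Between the knockdowns they numbered 5, and 3 with scaling to the median (4 to 5 with arrays left out). Partner genes called in Pu.1 KD against EV numbered 6, and 1 with the replicate block, with scaling to the median or with only the groups compared, 3 with no filter on dim probes, and 1 to 5 with arrays left out. Those called in the other 2 comparisons stayed within 6 to 12 and 10 to 14. Over all tested probes, calls in the 3 comparisons were 1902, 986 and 3524, against 1172, 234 and 2368 with the replicate block, 2886, 1875 and 5168 with the slide as a block, 1203, 377 and 2259 with scaling to the median, and 2620, 1785 and 4553 with the deposited log2 values. With the normexp correction and with trend and robust settings, the Pu.1 KD comparison with EV gave 1396 and 1575, and with only the groups compared those with EV gave 1114 and 223. Leaving out arrays in turn gave 1072 to 1700, 281 to 824 and 2206 to 3932. The cause of these shifts was not tested. The numbers of the replicates name no shared culture. Each number holds 1 array of each group, so for a probe without missing values that block leaves the size of a change as it was. A call lost under it is thus not a smaller change. Gata2 in Gata2 KD and Spi1 in Pu.1 KD were called under all 21 alternatives. The 3 arrays in each group limit the precision of every value.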

Other observations

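Of the annexins outside the set described, Anxa8, Anxa9, Anxa10 and Anxa13 were on the array and tested. None was called by limma against EV, with 1 of 4 at an unadjusted p under 0.05 in Gata2 KD and 0 in Pu.1 KD. Over all tested probes, 5.2% were called in Gata2 KD and 2.7% in Pu.1 KD, so none of 4 is near these shares. Anxa9 had the opposite order of group means to Anxa3. It read 0.99, 1.17 and 1.43 in EV, 0.64, 0.81 and 0.70 in Gata2 KD and 1.69, 1.62 and 1.24 in Pu.1 KD, so that all Gata2 KD arrays lay below all others. Its differences from EV were -0.48 (SE 0.17, limma adjusted p = 0.222) and 0.32 (SE 0.17, limma adjusted p = 0.587), and Gata2 KD was lower than Pu.1 KD by -0.80 (SE 0.17, limma adjusted p = 0.0231), where 4.77% of all tested probes were called lower. That call held under 14 of 21 alternatives and was lost without any 1 of the Gata2 KD arrays or Pu.1 KD replicate 1 or 2 (changes of -0.93 to -0.71). The tested probes of Anxa8, Anxa10 and Anxa13 had group means between -2.55 and -2.28.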
